A study of Mus musculus with 6 samples.

Results

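The TAM receptors Axl, Mertk and Tyro3 and their ligands Gas6 and Pros1 were followed by gene symbol through 6 RNA-seq libraries of mouse endothelial cells. These 5 of the 24421 genes in the count table were chosen by name, with the earlier log2 ratios of the same libraries known (those of Axl in the overexpressing lines among them), so their levels and ratios are descriptions and carry no test. Blood endothelial cells (BECs) sorted from E15.5 embryo skin came from Tie2-Cre(-); Dot1l 2f/2f embryos (Cont, labelled wild type) and Tie2-Cre(+); Dot1l 2f/2f embryos (cKO, labelled Dot1l KO), so that both skin libraries carry the floxed Dot1l allele. The sort kept cells that stained for the endothelial surface protein CD31 and not for F4/80, CD45 or Lyve1, and RNA of 2 to 3 embryos was pooled per library. Tie2-Cre acts in endothelium and is known to act in blood cells too. The cultured libraries were a yolk sac BEC line (CRL-2581) and embryonic dermal lymphatic endothelial cells (LECs, C57-6064L), each as Cont cells that received empty lentivirus and as OE-BECs or OE-LECs that received a virus directing dCas9-VP64 to the Dot1l promoter, sorted for GFP and harvested from 2 to 3 flasks. Each condition has 1 library, so each comparison is between 2 libraries and no spread between replicates can be given.

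TAM receptors are receptor tyrosine kinases whose ligands, Gas6 and protein S (the product of Pros1), are carried to them on phosphatidylserine, the lipid that dying cells turn outward. The ligands need vitamin K-dependent carboxylation for this binding. Gas6 binds all of the receptors and Axl most tightly, whereas protein S acts on Mertk and Tyro3. In macrophages the receptors drive the engulfment of dying cells and restrain inflammatory signalling, and in the vessel wall protein S is also the cofactor of activated protein C in the control of clotting.

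The promoter sequences of 3 members are shown first. Axl was past the fold rule in both overexpressing lines, Mertk was the main receptor in culture, and Gas6 was abundant in skin and near absent in culture. Each runs 5′ to 3′ on the strand of the gene over 300 bases, from 250 before the RefSeq start (GRCm38.p6, the assembly of mm10) to 50 after it. The windows are chr7:25788684-25788983 on the minus strand for Axl, chr2:128698665-128698964 on the plus strand for Mertk and chr8:13494486-13494785 on the minus strand for Gas6. Capitals mark matches to GGAATG (TEAD core) or GGGCGG (Sp1 core) on either strand.
Axl: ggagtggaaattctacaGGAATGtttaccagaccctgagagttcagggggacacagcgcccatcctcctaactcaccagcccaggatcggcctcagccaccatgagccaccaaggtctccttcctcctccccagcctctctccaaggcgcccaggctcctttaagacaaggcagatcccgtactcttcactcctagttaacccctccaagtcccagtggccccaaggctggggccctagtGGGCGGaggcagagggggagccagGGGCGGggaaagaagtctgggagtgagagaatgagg
Mertk: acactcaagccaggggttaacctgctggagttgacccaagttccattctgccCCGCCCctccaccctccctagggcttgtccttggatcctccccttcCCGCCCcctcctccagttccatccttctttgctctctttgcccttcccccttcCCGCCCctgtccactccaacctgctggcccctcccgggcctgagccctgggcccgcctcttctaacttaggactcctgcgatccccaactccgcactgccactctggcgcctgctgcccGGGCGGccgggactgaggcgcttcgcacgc
Gas6: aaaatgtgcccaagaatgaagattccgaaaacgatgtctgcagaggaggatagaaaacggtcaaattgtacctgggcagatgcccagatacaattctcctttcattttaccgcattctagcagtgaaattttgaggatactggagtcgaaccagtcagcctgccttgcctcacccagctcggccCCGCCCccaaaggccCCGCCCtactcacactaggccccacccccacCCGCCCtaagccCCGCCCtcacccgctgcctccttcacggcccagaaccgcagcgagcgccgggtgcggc
GGAATG stood once in the Axl window, 233 bases before the start, and in none of the other 4 members' windows, while 14.7% of 32851 promoter windows of the same length hold it. GGGCGG occurred in the windows of all 5 members, 2 times in Axl, 4 in Mertk, 4 in Gas6, 6 in Tyro3 and 5 in Pros1, against 35.7% of all windows with at least 1 match. Neither TGANTCA (AP-1 site, in 7.81% of windows) nor the interferon-stimulated response element core, read as 2 copies of GAAA with 2 bases between (in 3.44%), matched in any member. GGGCGG matches overlapped each other in Tyro3 and Pros1, and no match of one motif overlapped another. The Axl window had the fewest CpG dinucleotides of the members, 6, against 14 in Mertk, 17 in Gas6, 21 in Pros1 and 31 in Tyro3, and a median of 7 over all windows. These matches describe letters and not binding.

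Total counts ran from 8863349 (Cont, skin) to 31032461 (OE-LECs), and the ribosomal Rn45s took 5.91% of reads in cultured Cont BECs and 10.9% in OE-BECs but at most 0.570% elsewhere. A level is given as counts per 1000000 reads of the library (CPM) with an exact Poisson 95% interval, which covers counting error only, since amplified reads carry no molecular identifier and may repeat a molecule. Dot1l was represented by 762 reads in the skin control and 944 in its cKO counterpart, so its count did not separate them (log2 ratio -0.07, interval -0.21 to 0.07), and the latter is called the library labelled cKO. Reads per gene do not isolate the floxed exons. The paper reports a check of the Dot1l deletion in cKO BECs by RT-qPCR without replicates. It checked overexpression by RT-qPCR and read tracks. Dot1l was 2.78-fold higher in OE-BECs and 2.30-fold higher in OE-LECs. All 12 blood endothelial markers were above 3 reads in each of the 6 libraries. The skin libraries also held reads of genes the sort should deplete: Lyve1 at 1027 and 1801 CPM, control first, Adgre1 (F4/80) at 194 and 308 CPM, and Ptprc (CD45) at 136 and 211 CPM. Prox1, the defining transcription factor of lymphatic identity, was at 0 reads in Cont LECs and OE-LECs alike.

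Axl lies on chromosome 7 of mm10 from 25757273 to 25788705 and encodes the receptor with the highest affinity for Gas6. Its level was 64.5 and 64.2 CPM in the Cont and cKO libraries of skin, 0.792 and 8.83 CPM in the cultured BEC pair, control first, and 6.74 and 40.2 CPM in the LEC pair. The skin libraries were highest and overlapped within counting error, OE-LECs came next, OE-BECs and Cont LECs overlapped, and Cont BECs were lowest, with 14 reads. From the highest library to the lowest the level differed 81.5-fold.

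Mertk, on chromosome 2 from 128698956 to 128802894, encodes the receptor best known from engulfment by macrophages and retinal pigment epithelium. It was at 58.1 and 107 CPM in skin Cont and the library labelled cKO, at 53.6 and 95.7 in cultured Cont BECs and OE-BECs, and at 117 and 163 in Cont LECs and OE-LECs. Each changed library was above its own control. OE-LECs were highest, the intervals of Cont LECs and the library labelled cKO overlapped, as did those of the latter and OE-BECs, and the Cont libraries of skin and cultured BECs overlapped at the bottom. The whole range was 3.05-fold.

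Tyro3, on chromosome 2 from 119797733 to 119818104, encodes the receptor most prominent in the nervous system. Its levels were 5.08 and 7.13 CPM in the skin libraries, 3.73 and 5.81 in the cultured BEC libraries and 8.35 and 11.8 in the LEC libraries, control first. Only OE-LECs stood apart from their neighbour in this order, Cont LECs. All the other neighbours overlapped within counting error, and the range was 3.15-fold.

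Gas6, on chromosome 8 from 13465374 to 13494490, encodes the ligand that activates all of the receptors. It had 2109 and 5544 reads in the Cont and cKO libraries of skin, or 238 and 500.1 CPM. In culture it had 22 and 21 reads in the BEC pair (1.24 and 1.51 CPM) and only 4 and 3 in the LEC pair (0.153 and 0.0967 CPM), control first. Skin Cont BECs were 158-fold above OE-BECs, the highest cultured library. Within each cultured line the 2 libraries overlapped. Skin cells were fresh and the lines cultured, and the cells also differ in origin. The skin libraries also held more reads of other cell types' markers. Macrophage markers summed to 4238 CPM in skin Cont BECs, against 65.0 in cultured Cont BECs and 94.7 in Cont LECs. Cd68 alone made 61.8 CPM of the sum in cultured Cont BECs. Fibroblast and pericyte markers summed to 2939 CPM, against 4.98 and 11.6 in the same order. For the Gas6 level these differences cannot be told apart. An exon of Tmem255b on the opposite strand covers 34 bases of the Gas6 exons; no other gene of the table overlaps an exon of a member.

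Pros1, on chromosome 16 from 62854307 to 62929346, encodes protein S. It was at 149 and 96.5 CPM in skin Cont and the library labelled cKO, 37.3 and 24.9 in cultured Cont BECs and OE-BECs, and 51.8 and 49.9 in Cont LECs and OE-LECs. Unlike Gas6 it was thus well detected in culture, with 347 reads in the lowest library, OE-BECs. The LEC libraries overlapped, every other pair of neighbours in the order was apart, and the range was 5.97-fold.

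**Figure D1:**
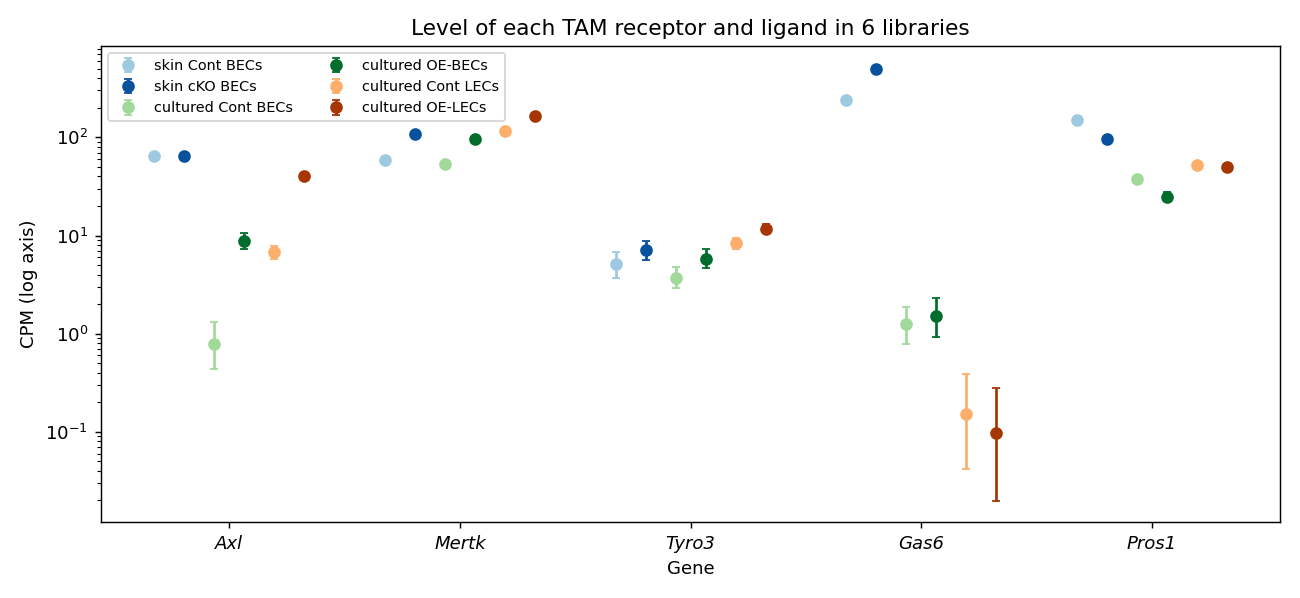
CPM of each gene (x axis) in the 6 libraries on a logarithmic y axis; each point is 1 library and its bar the exact Poisson 95% interval. Axl spans from 0.792 to 64.5 CPM and Gas6 from under 2 CPM in culture to 500.1 CPM in skin, whereas Mertk and Tyro3 stay within about 3-fold.

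Levels of different genes were compared per kilobase of annotated exons. In skin Cont BECs the receptors were shared almost evenly between Axl and Mertk, with 47.4% (interval 44.5 to 50.3) and 49.6% (46.6 to 52.5) of the summed receptor level, and Tyro3 made 3.03%. With the length of the longest transcript in place of all exons Axl came first there, 50.8% against 45.4%, so the order of these genes depends on the length used. In the library labelled cKO the shares were 33.1% Axl and 63.9% Mertk. Culture was dominated by Mertk, with 94.2% and 89.1% of the receptor level in the control and overexpressing BECs and 90.9% and 79.2% in the corresponding LECs. The Axl share in the BEC pair was 1.20% (0.711 to 2.01) against 7.08% (5.96 to 8.39) under overexpression, and in the LEC pair 4.51% (3.90 to 5.21) against 16.8% (16.0 to 17.7). In both lines, then, Axl held a larger part of the receptor transcripts in the overexpressing library, while Mertk remained the main receptor.

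Of the ligand level per kilobase, Gas6 made 72.0% and 89.3% in the Cont and cKO libraries of skin. In culture its share was 5.08% and 8.85% in the BEC pair and 0.472% and 0.310% in the LEC pair, control first, and Pros1 made the rest. Gas6 in skin was among the most abundant transcripts per kilobase, above 98.3% and 99.3% of the genes with reads in the control and cKO libraries. The summed ligand level exceeded the summed receptor level 4.798-fold and 5.70-fold in these skin libraries. In culture the receptors exceeded the ligands, 1.37-fold and 3.71-fold in the BEC pair and 2.33-fold and 3.89-fold in the LEC pair.

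**Figure D2:**
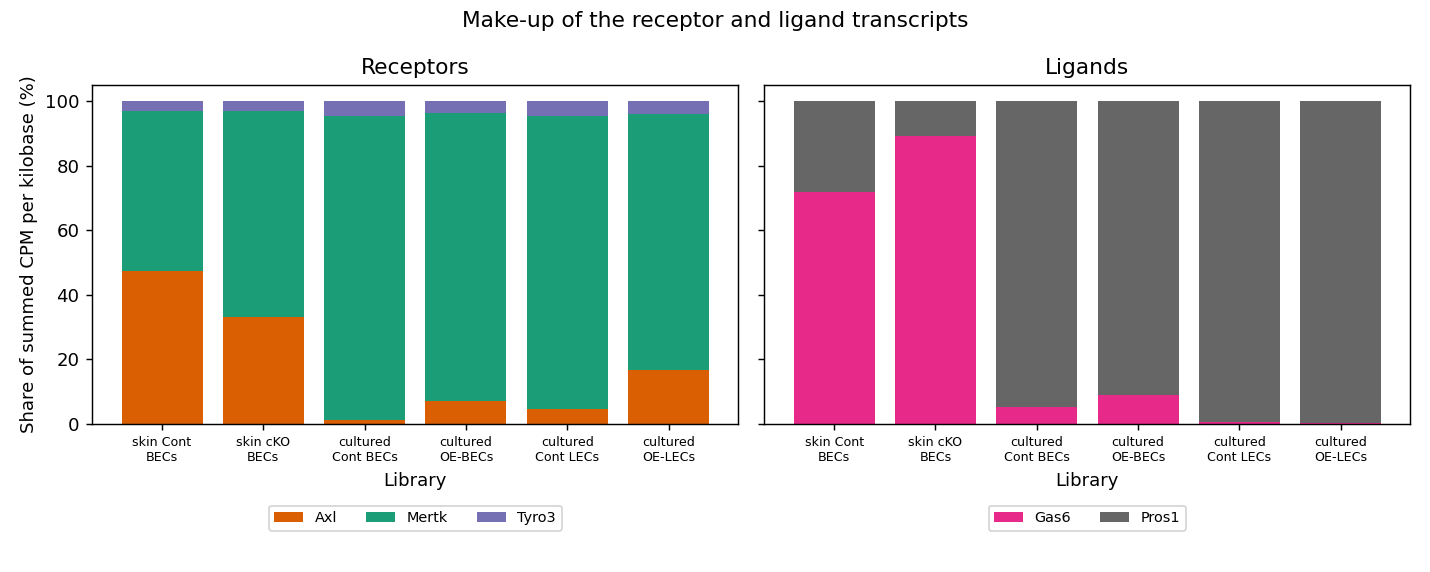
Share (percent, y axis) of each receptor in the summed receptor level and of each ligand in the summed ligand level, in CPM per kilobase of exons, for the 6 libraries (x axis). Mertk takes 79.2% or more of the receptor level in every cultured library, and Gas6 takes 72.0% or more of the ligand level in skin but 8.85% or less in culture.

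Within each pair, counts were scaled by the median of ratios. Called genes are those past 3-fold whose larger scaled count reached a minimum, 5 in the skin pair and 3 in the cultured pairs. Log2 ratios carry 95% intervals by the exact Clopper-Pearson method, taken from the paired reads. In the library labelled cKO none of the 5 members was called, where 5.17% of 15993 genes were called up and 2.41% down. Gas6 was 2.02-fold higher (log2 ratio 1.02, interval 0.94 to 1.09) and Mertk 1.77-fold higher (0.83, 0.68 to 0.98). Pros1 was 1.60-fold lower (-0.68, -0.80 to -0.56). The ligands therefore differed in opposite directions between these libraries. Axl had a log2 ratio of -0.06 (-0.22 to 0.10) and Tyro3 of 0.43 (-0.11 to 0.996), and for neither was a difference detectable at this depth. By sign alone 3 of the 5 were higher, where 50.5% of genes were. Past 2-fold with a minimum of 20, Gas6 alone counted, where 6.67% of 13638 genes were up and 3.25% down.

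Macrophages express Mertk and Gas6, and markers of macrophages and of other cell types were read in the same pair. Of 13 macrophage markers, 11 were higher in the library labelled cKO, 2 were lower and none was called, with a median log2 ratio of 0.61 against 0.012 over 16589 genes. Their summed levels were 4238 and 6466 CPM. C1qa, a complement subunit made by tissue macrophages, had 624 and 1473 reads (log2 ratio 0.86, interval 0.73 to 0.999), and Adgre1 had a log2 ratio of 0.61 (0.53 to 0.70). The 2 that were lower were Cx3cr1, with 1527 and 1072 reads (-0.89, -1.002 to -0.77), and Cd163 (-0.05, -0.13 to 0.03). Markers of blood endothelium were lower in 10 of 12 cases, with a median log2 ratio of -0.70 and summed levels of 6679 and 4311 CPM. Fibroblast and pericyte markers were lower in 9 of 10 cases (median -0.44, summed level 2939 and 2198 CPM). Of the keratinocyte markers 4 of 6 were higher, and Krt1 and Krt10 were called up, where 5.17% of genes were (median 0.38, 176 and 268 CPM). Of the Schwann and melanocyte markers 6 of 7 were higher (median 0.24, 78.4 and 120 CPM), and of the lymphatic markers 2 were higher and 4 lower, with Ccl21a at 0 reads in both (median -0.22, 2788 and 3246 CPM). Sorting for CD31 should deplete the fibroblast, pericyte, keratinocyte, Schwann and melanocyte lists' cells. The part of these cell types in the values of Mertk, Gas6 and Pros1 was not tested. In a bulk library, fewer cells of a type and less RNA per cell cannot be told apart.

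In OE-BECs 1 of the 5 members, Axl, was called up, where 8.02% of 14792 genes were called up and 5.27% down. Its 14 reads in the control and 123 under overexpression gave a ratio of 11.5-fold (log2 ratio 3.52, interval 2.72 to 4.43). Mertk was 1.83-fold higher (0.88, 0.75 to 0.997) and Tyro3 1.60-fold higher (0.68, 0.19 to 1.17). Each of the receptors was thus above its control in OE-BECs, by far the most for Axl, the least abundant of them per kilobase in the control. Pros1 was 1.46-fold lower (-0.54, -0.73 to -0.35). Gas6 had a log2 ratio of 0.32 (-0.62 to 1.25), and no difference was detectable from 22 and 21 reads. By sign 4 of the 5 were higher, where 50.8% of genes were. Past 2-fold with a minimum of 20, Axl alone counted, where 4.33% of 11974 genes were up and 5.59% down.

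In OE-LECs Axl was again the only called member of 5, where 2.77% of 13883 genes were called up and 2.09% down. Its 176 and 1249 reads gave a log2 ratio of 2.60 (interval 2.37 to 2.83). Mertk was 1.41-fold higher (0.50, 0.44 to 0.57) and Tyro3 1.43-fold higher (0.51, 0.27 to 0.76). Pros1 had a log2 ratio of -0.04 (-0.14 to 0.07), and Gas6, with 4 and 3 reads, one of -0.65 (-3.42 to 1.92), which the depth cannot tell from no difference. Axl had the highest ratio of the receptors in both lines, and the intervals of Mertk and Tyro3 overlapped in both. By sign 3 of the 5 were higher, where 50.6% of genes were. Past 2-fold with a minimum of 20, Axl alone counted, where 2.26% of 11858 genes were up and 1.56% down.

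Set side by side, the log2 ratio in OE-BECs exceeded that in OE-LECs by 0.92 for Axl, with a counting interval of 0.09 to 1.75, and by 0.38 for Mertk (0.24 to 0.51). For Tyro3 the difference was 0.17 (-0.36 to 0.69). Pros1 was lower by 0.50 on this scale in OE-BECs than in OE-LECs (log2 difference -0.50, -0.72 to -0.29). Dot1l itself differed by 0.27 (0.17 to 0.38). With 1 library per condition these intervals hold counting error and no spread between cultures.

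**Figure D3:**
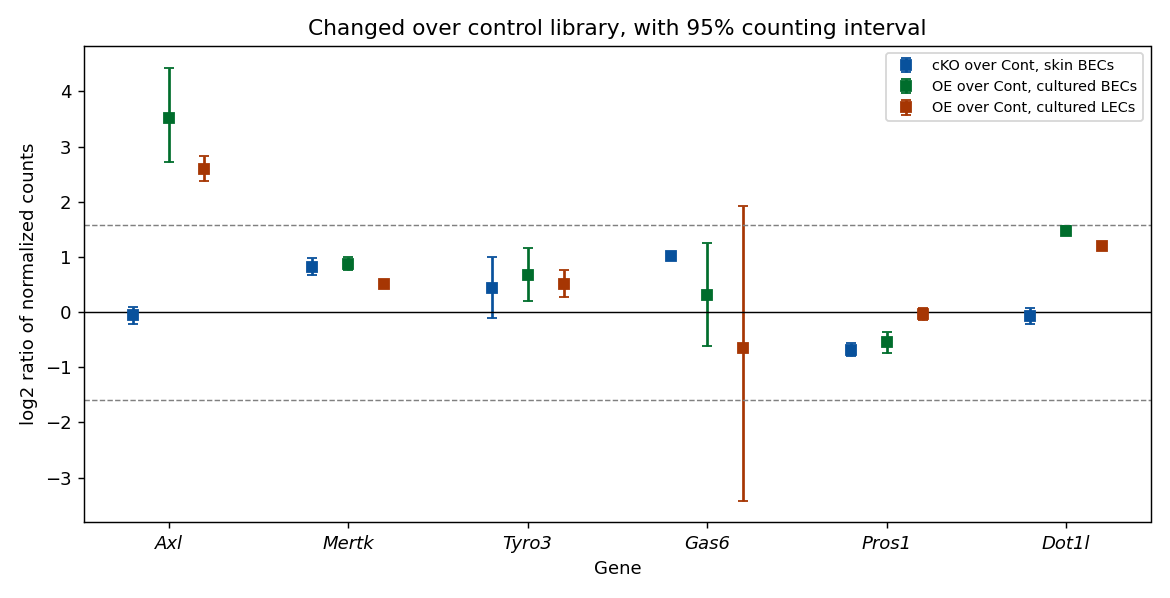
Log2 ratio of normalized counts, changed over control library (y axis), for the 5 members and Dot1l (x axis) in the 3 comparisons; bars are exact 95% intervals from the reads and dashed lines mark 3-fold. Axl lies past 3-fold in both overexpressing lines, at 3.52 and 2.60, and at -0.06 in the library labelled cKO.

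Genes of the interferon response, a program in which Axl is a known target in dendritic cells, moved with Axl in one line. In OE-LECs 19 of 20 such genes were higher, 12 of them called up, and the other, Mx1, had 3 reads in both libraries, with a median log2 ratio of 2.31 against 0.0074 over 13696 genes and summed levels of 1065 and 2857 CPM. Of all genes there, 2.77% were called up and 2.09% down. In OE-BECs 10 of the interferon genes were higher and 10 lower, 2 were called up and 1 down, the median was -0.0061 and the summed levels were 1923 and 1799 CPM. Of all genes in that pair, 8.02% were called up and 5.27% down, with a median of -0.0042. The log2 ratio of Axl was 2.60 (interval 2.37 to 2.83) in OE-LECs and 3.52 (2.72 to 4.43, with 14 control reads) in OE-BECs. In the library labelled cKO 11 of the interferon genes were higher and 9 lower, and Ifi44 was called down (median 0.034, 295 and 293 CPM). Of all genes in the skin pair, 5.17% were called up and 2.41% down. The part of interferon in the Axl values was not tested.

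Other cell types' markers were scarce in the cultured lines. Among the macrophage markers, Adgre1, Cd163, C1qa, C1qb and C1qc had 0 reads in all 4 cultured libraries, and the summed list was 65.0 and 34.4 CPM in the BEC pair, with 9 of 13 genes at or under 3 reads and Lyz2 called down, and 94.7 and 81.9 CPM in the LEC pair, with Cx3cr1 called up from 0 to 5 reads. Fibroblast and pericyte markers summed to 4.98 and 9.33 CPM in the BEC pair, where Col1a2 was called up, and to 11.6 and 24.0 in the LEC pair. Keratinocyte markers summed to 5.54 and 4.59 CPM in the BEC pair and to 6.59 and 8.89 CPM in the LEC pair. Schwann and melanocyte markers summed to 14.1 and 11.1 and to 6.97 and 8.18 CPM, in the same order. Trp63 was called up in OE-BECs on 0 and 5 reads, and Mbp was called up in OE-LECs. Blood endothelial markers were lower in 10 of 12 cases in OE-BECs, with Flt1 and Cldn5 called down (median log2 ratio -0.33), and in 9 of 12 in OE-LECs with none called (median -0.20). Lymphatic markers summed to 749 and 1160 CPM in the BEC pair, most of it Lyve1, with Mmrn1 called down from 5 to 0 reads. They summed to 2105 and 2093 CPM in the LEC pair, where 5 of the 7 genes were at or under 3 reads. Among those 5, Prox1, Pdpn and Ccl21a had 0 reads in both LEC libraries. Prox1 also had 0 reads in the BEC pair, but 1304 and 883 in the Cont and cKO libraries of skin.

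Pathway genes around the receptors were read from lists. The shares of all genes called in each comparison, given above with the members, are the background for these lists too. The ligands' modifying enzymes include Ggcx, the gamma-carboxylase, and Vkorc1 and Vkorc1l1, which recycle vitamin K. All 3 had reads in every library and none was called in any comparison. Ggcx had log2 ratios of 0.06 (interval -0.10 to 0.22) in the library labelled cKO, -0.29 (-0.49 to -0.10) in OE-BECs and -0.16 (-0.34 to 0.01) in OE-LECs. Vkorc1 had the largest difference of the list in the skin pair, with 101 and 69 reads, 1.90-fold lower (-0.93, -1.39 to -0.47), where Gas6 was higher. Adam10 and Adam17, proteases that shed the receptors from the surface, were not called either. In OE-BECs both were lower, Adam10 by a log2 ratio of -0.41 (-0.48 to -0.34) and Adam17 by one of -0.50 (-0.61 to -0.40). In the library labelled cKO Adam10 was lower (-0.55, -0.62 to -0.48), and Adam17 had a log2 ratio of -0.02 (-0.12 to 0.07).

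Of the further TAM ligands, Lgals3 (galectin-3) was called up in the library labelled cKO, with 49 and 323 reads, 5.07-fold higher. Lgals3 is abundant in macrophages, of whose 13 markers 11 were higher there and none was called (median log2 ratio 0.61). The part of macrophages in the Lgals3 value was not tested. Tub was called down in the skin pair with 253 and 108 reads, 3.04-fold lower (log2 ratio -1.61, interval -1.94 to -1.28). That interval spans the 3-fold limit. In OE-BECs Tub was called up on 0 and 3 reads, which is at or under the floor of 3 reads. Tulp1 had no reads in culture.

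The protein C pathway, which protein S serves as cofactor, had 4 of 6 genes above 3 reads in at least 1 library of each comparison, since Proc and C4bp had 0 reads in all libraries. Procr, the endothelial protein C receptor, was higher in both lines, 2.005-fold among BECs (log2 ratio 1.003, interval 0.94 to 1.07) and 1.57-fold among LECs (0.65, 0.62 to 0.68), the opposite direction to Pros1 in OE-BECs. Thbd (thrombomodulin) was lower in the library labelled cKO (-0.68, -0.84 to -0.52) and in OE-BECs (-0.36, -0.40 to -0.31) and higher in OE-LECs (0.45, 0.42 to 0.48). F5, which encodes factor V, was called up in both overexpressing lines on few reads, 6 and 20 in the BEC pair and 3 and 16 in the LEC pair. The median log2 ratio of the list was -0.15, 0.40 and 0.55 in the skin pair, the BEC pair and the LEC pair. In OE-BECs 2 of the 4 genes were higher and 2 lower, and the summed levels were 935 and 961 CPM. Tfpi was among the lower, at -0.21 (-0.30 to -0.13).

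Among 16 genes of phosphatidylserine exposure, bridging and recognition, 10 of the 14 above 3 reads in either library were higher in the library labelled cKO, and Stab2 and Cd300lf were called up (median 0.45). In OE-BECs 3 of 11 were higher, with Itgb5 called up and Stab2 and Megf10 down (median -0.26), and in OE-LECs 8 of 10 were higher with Stab2 called down (median 0.20). Of all genes, 5.17% were called up and 2.41% down in the skin pair. In the BEC pair these shares were 8.02% and 5.27%, and in the LEC pair 2.77% and 2.09%. By sign 50.5%, 50.8% and 50.6% of all genes were higher, with medians of 0.012, -0.0042 and 0.0074. Stab2, a scavenger receptor that binds phosphatidylserine, went opposite to Axl in both lines, with 2412 and 114 reads in the BEC pair and 242 and 40 in the LEC pair. Mfge8, the bridging protein that links phosphatidylserine to integrins, was 1.81-fold higher in OE-BECs (log2 ratio 0.86, 0.76 to 0.95) and 1.30-fold higher in OE-LECs (0.38, 0.33 to 0.43). Itgb5, a subunit of its integrin receptor, was 3.25-fold higher in OE-BECs and 1.56-fold higher in OE-LECs. Megf10 was called on 6 and 0 reads and Cd300lf on 5 and 21.

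Of 15 genes of signalling and engulfment, such as Rac1, Elmo1 and Dock1, 1 was called in any comparison. That was Abca1, a lipid exporter that TAM-dependent engulfment is known to feed, with 4912 and 209 reads in the BEC pair, 18.02-fold lower in OE-BECs, and 1.30 lower on the log2 scale in OE-LECs (log2 ratio -1.30). The medians of this list were -0.25, -0.013 and 0.011. The cytokine brake, through which TAM receptors act with the interferon receptor to induce Socs1 and Socs3, was read from 7 genes. By sign all were lower in the library labelled cKO (median -0.22), where 50.5% of genes were higher. Socs3 was called down with 1021 and 317 reads. No difference was detectable for Socs1 (log2 ratio -0.06, interval -0.88 to 0.78) or Ifnar2 (-0.14, -0.28 to 0.01). In OE-BECs 3 genes of this list were higher and 3 lower, and Twist2 was called up on 0 and 5 reads. In OE-LECs 3 were higher and 2 lower with none called, and Socs1 had a log2 ratio of 0.27 (-0.17 to 0.70) and Socs3 of 0.29 (0.09 to 0.48).

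**Figure D4:**
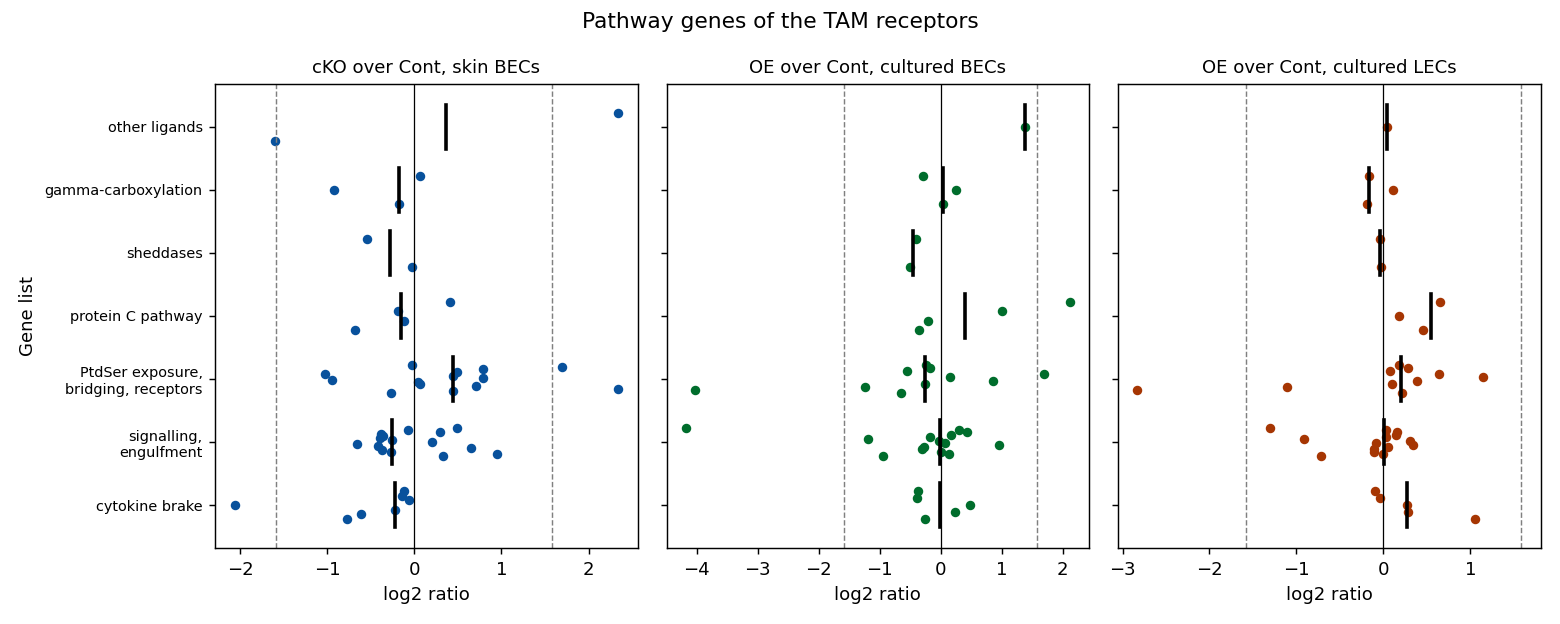
Log2 ratio, changed over control library (x axis), of the genes with more than 3 reads in both libraries in 7 pathway lists (y axis), 1 panel per comparison. Each point is a gene, black bars are list medians with counts under 3 reads set to 3, and dashed lines mark 3-fold; Stab2 and Abca1 lie farthest left in OE-BECs.

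The genes most like each member over the 6 libraries were those with the smallest root mean square difference of log2(CPM + 0.5), each gene centred on its own mean, among 13643 genes with a mean of at least 1 CPM. For Axl these were Sema3c, at 0.32 log2 units, Ano1 at 0.54 and Eepd1 at 0.64. Sema3c, a secreted semaphorin, had 34.4 and 32.0 CPM in skin, 0.565 and 6.67 in the cultured BEC pair and 5.21 and 19.6 in the LEC pair. For Mertk they were Plod2, Tmem230 and Ldha, at 0.12, 0.14 and 0.16, and Tyro3 came next, in place 4 of all genes, at 0.16. For Tyro3 they were Mboat7, Acy1 and Ldha, at 0.081, 0.10 and 0.13, with Mertk in place 16. Hpgds and Peg3 were among the nearest to Gas6 (0.34 and 0.43), and 2810013P06Rik, Gnb4 and Zfp820 to Pros1 (0.11, 0.12 and 0.12). Mertk and Tyro3 thus had nearly the same profile at different heights, and Axl stood far from both, at 1.91 from Mertk and 1.84 from Tyro3.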

How the data were processed

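RNA-seq libraries were prepared by the authors with the ScriptSeq v2 kit, trimmed with skewer, aligned to mm10 with STAR and counted per gene with VERSE, and raw counts of 24421 gene symbols were deposited. Samples were grouped by their labels. Whether strand was used in counting is not given in the sources used here. Size factors were computed on each pair of libraries by the median of ratios (DESeq2 1.42.0, R 4.3.3). The call rule follows the study's methods. The members and lists were chosen with earlier results of these data known. Genes named beyond the members are those of the pathway and marker lists and, for each member, the 3 most similar genes, of which some results are not reported here. Positions and exon lengths came from GENCODE M21 (95.7% of symbols had a length), and promoters from RefSeq (GRCm38.p6, all 5 members). A library at 3 reads or fewer was at its floor, and list medians set lower counts to 3 reads and left out genes at the floor in both libraries. Intervals of shares and of differences between ratios used the delta method. Total depth, 8863349 to 31032461 counts, limits precision for Gas6 in culture most. Alternatives were TMM factors (edgeR 4.0.16), size factors of all 6 libraries, total counts with and without Rn45s, other minimums and folds, a pseudocount of 1 and another gene length. The steps were tested on simulated data (Python 3.11.15, scipy 1.17.1). No protein sequences were used here.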

Additional observations from a re-analysis of the deposited data

Results flagged for a closer look

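Gas6 is listed because its log2 ratio was 0.32 in OE-BECs and -0.65 in OE-LECs, opposite directions under the same contrast. The difference of 0.96 has a counting interval of -1.36 to 3.29, the reads behind it are 22 and 21 in the BEC pair and 4 and 3 in the LEC pair, and a difference between the lines was not tested.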

How the results depend on the processing

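No paired analysis was possible because each condition has 1 library. Under the 4 other scalings and a pseudocount of 1, all 75 alternative log2 ratios of the members stayed within their counting intervals. Axl ranged from 3.42 to 3.56 in OE-BECs and from 2.58 to 2.60 in OE-LECs. The number of called members was the same in 20 of 21 alternatives, and a fold of 2 in place of 3 called 1 member, Gas6, in the library labelled cKO instead of 0. Shares per kilobase moved by more than counting error in 16 of 24 cases when the longest transcript replaced all exons, which changes only the lengths. Axl then took 50.8% of the receptor level in skin Cont BECs, 36.3% with the cKO label and 18.8% in OE-LECs. Mertk took 45.4% and 59.9% in the skin pair, 92.4% and 86.8% in the BEC pair and 88.7% and 75.9% in the LEC pair, control first, and Tyro3 took 3.85% in the library labelled cKO, 6.21% and 5.09% in the BEC pair and 6.11% and 5.27% in the LEC pair. Gas6 took 67.5% and 87.0% of the ligand level in skin. Only the order of Axl and Mertk in skin Cont BECs turned. Depth limits Gas6 in culture, with 3 to 22 reads, and Axl in Cont BECs, with 14.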

Other observations

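Genes next to Axl and Mertk were looked up after their values were seen. Hnrnpul1, 2515 bases from Axl, had log2 ratios of 0.13 (interval 0.06 to 0.19) in OE-BECs and -0.04 (-0.10 to 0.02) in OE-LECs. Cyp2s1, 13769 bases away on the other side, had 0 and 3 reads in the BEC pair and 3 and 7 in the LEC pair, too few for a comparison. Near Mertk, which was higher in each changed library, Anapc1 was lower in all 3 comparisons (-0.27, -0.35 and -0.19) and Tmem87b had log2 ratios of 0.17, -0.28 and 0.05.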
